A study of Homo sapiens with 2 samples.

Results

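The 10 genes described here encode E-cadherin (CDH1), N-cadherin (CDH2), P-cadherin (CDH3), vimentin (VIM), fibronectin (FN1) and the transcription factors SNAI1, SNAI2, ZEB1, ZEB2 and TWIST1, which are the genes most often used to place a carcinoma cell between an epithelial and a mesenchymal state. They were chosen by symbol, and all 10 were found once each among the 60616 genes of the expected count, FPKM and TPM tables. The tables hold 1 RNA-seq library of HSC-3 cells, an established line from a squamous cell carcinoma of the tongue, given 0.1% DMSO as the vehicle, and 1 library of HSC-3 cells given 1 µM FIN56 for 48 h. The labels state the time for the FIN56 library only, both cultures grew in DMEM with serum, and no genotype or other agent is named for either. FIN56 is an inducer of ferroptosis, the iron-dependent death of cells whose membrane lipids are oxidised, and the study used it here at a sublethal dose. Because each condition is 1 library of 1 cell line, no difference between DMSO and FIN56 has a replicate behind it, and no test between conditions was possible.

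Epithelial-mesenchymal transition (EMT) is the programme by which epithelial cells lose their junctions and gain motility. Cadherins join neighbouring cells through calcium-dependent contacts and hold the actin cytoskeleton through catenins, and a shift from E-cadherin to N-cadherin is the textbook mark of the transition. The SNAI, ZEB and TWIST factors repress epithelial genes such as CDH1, while vimentin filaments and fibronectin matrix are products of the mesenchymal side. Squamous carcinoma cells often carry features of both sides at once, a state called partial or hybrid EMT.

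Expected counts, in which RSEM divides a read that fits several genes between them, came to 70184517 for DMSO and 73062209 for FIN56 over all genes. Levels are given as FPKM or TPM, both scaled per length, so that genes can be set beside each other within a library. The squamous origin given for HSC-3 was checked against 8 squamous epithelial markers, all of which were detected, with summed TPM of 8120 in DMSO and 7452 in FIN56. Markers of other cell types were mixed. PTPRC and CD3E of leukocytes, KDR of endothelium and COL1A2 of fibroblasts had no count in either library, and COL3A1 had 0 and 1. The summed TPM of the 7 fibroblast markers was 7.88 in DMSO and 4.64 in FIN56, and most of it was COL1A1. COL1A1 had 919 counts in DMSO and 562 in FIN56. Of the leukocyte list, CD68 was present at an FPKM of 57.27 and 24.58 and CD14 at 3.62 and 5.15, the latter from 339 and 492 counts.

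In the DMSO library of HSC-3 cells, transcripts of the epithelial cadherins and of vimentin were both at high levels. Bulk RNA does not show whether the same cells carried both. VIM stood highest of the 10 genes, with a TPM of 391, which exceeded that of 98.7% of the 27340 genes listed above 0 in that library. CDH3 followed with a TPM of 174, above 96.9% of genes, and CDH1 with 65.8, above 91.3%. SNAI2, a zinc finger repressor that basal epithelial cells also express, had a TPM of 54.8, above 89.7%. FN1 was next with 24.7, then TWIST1, a basic helix-loop-helix factor, with 10.5, and CDH2 with 6.47. The remaining factors formed a separate low group, with a TPM of 0.54 for ZEB2, 0.42 for ZEB1 and 0.24 for SNAI1. The order was the same in the FIN56 library apart from ZEB1 and ZEB2, which exchanged places at 0.64 and 0.55. Their counts, of 100 and 111 in DMSO and 109 and 111 in FIN56, did not separate them beyond counting error.

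**Figure D1:**
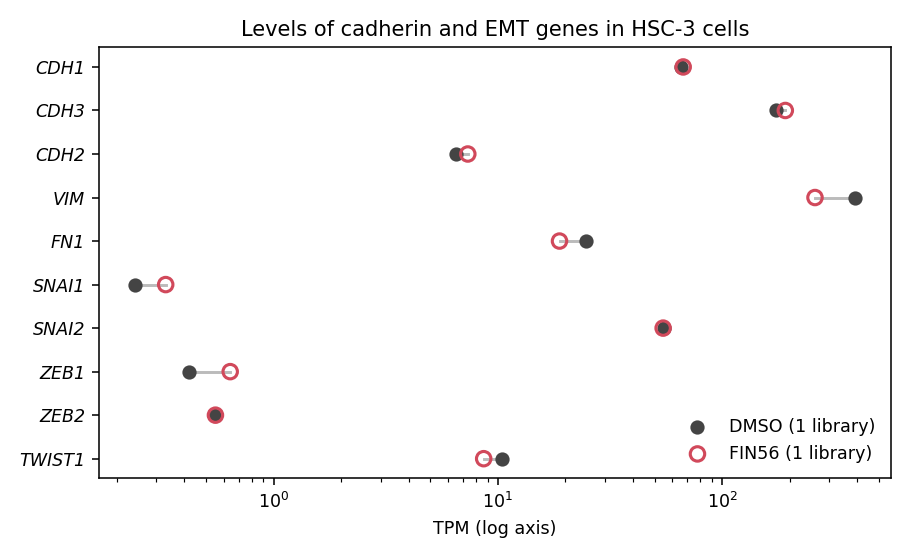
TPM on a log axis (horizontal) of the 10 genes in the DMSO library (filled) and the FIN56 library (open circles), 1 library each and hence without error bars. VIM, CDH3, CDH1 and SNAI2 lie above 50 TPM in both libraries, whereas SNAI1, ZEB1 and ZEB2 lie below 1.

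The epithelial cadherins differed little between the libraries. CDH1, the calcium-dependent adhesion receptor of epithelial adherens junctions, is on the plus strand of chromosome 16 (canonical transcript chr16:68737292-68835537, GRCh38, 16 exons). The DMSO library had an FPKM of 43.99 and the FIN56 library 43.84, from 13281 and 14269 expected counts. The FPKM ratio of FIN56 over DMSO was 0.997, whereas the count ratio, scaled by library totals, was 1.03 with a 95% counting interval of 1.01 to 1.06, so the sign of this small difference depended on the unit. CDH3, which basal cells of stratified epithelia carry and which lies just before CDH1 on the same strand (chr16:68645310-68700292, 16 exons), had an FPKM of 116.42 and 125.11. Its ratio was 1.07, and its count ratio 1.11 (1.09 to 1.13). P-cadherin transcripts thus outnumbered E-cadherin transcripts per length in both libraries, by 2.65 times in DMSO and 2.85 times in FIN56.

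N-cadherin transcripts were a minor part of the cadherins in both libraries. CDH2, the cadherin of mesenchymal and neural cells, lies on the minus strand of chromosome 18 (chr18:27950966-28177130, 16 exons) and had an FPKM of 4.33 with DMSO and 4.80 with FIN56. Its ratio was 1.11, and its count ratio 1.09 (1.01 to 1.18). Of the summed TPM of CDH1, CDH2 and CDH3, 246 in DMSO and 266 in FIN56, CDH2 made up 2.63% and 2.76%, CDH1 26.7% and 25.2%, and CDH3 70.7% and 72.0%. The ratio of CDH1 to CDH2 within a library, which no scaling between libraries can alter, was 10.2 in DMSO and 9.13 in FIN56. All 3 cadherins lay between the thresholds of 1.5 and 1/1.5.

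VIM was lower in the FIN56 library. Vimentin is the type III intermediate filament of mesenchymal cells, and its gene lies on the plus strand of chromosome 10 (chr10:17228241-17237593, 10 exons). The FPKM values were 261.73 in DMSO and 169.67 in FIN56, a ratio of 0.648 or 35.2% lower. The counts behind it were 32441 and 21926, and the count ratio of 0.649 had an interval of 0.638 to 0.660, the whole of which lay under 1/1.5. This holds for scaling by library totals. With median-of-ratios factors, another scaling, the ratio was 0.666, close to 1/1.5. In bulk RNA, fewer cells that express a gene and less RNA in each cannot be told apart. The summed TPM of the 7 fibroblast markers was 7.88 in DMSO and 4.64 in FIN56, of which COL1A1 made up 6.36 and 3.35. COL1A2 was at 0 in both libraries. Whether the make-up of the cultures differed was not tested. VIM was the only one of the 10 genes at 1/1.5 or less, as 17.3% of the 24454 genes above 0 in both libraries were. Among the 10327 genes with at least 1000 counts in both libraries together, where counting error is small, 5.43% were. Set against CDH1 within a library, VIM was 5.95 times as abundant per length in DMSO and 3.87 times in FIN56.

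FN1 showed a smaller difference in the same direction. Fibronectin is the glycoprotein that cells assemble into a pericellular matrix, and its gene lies on the minus strand of chromosome 2 (chr2:215360865-215436068, 46 exons). The gene had an FPKM of 16.53 in DMSO against 12.32 in FIN56, a ratio of 0.745 or 25.5% lower. The counts were 7286 and 5459, with a count ratio of 0.720 (0.695 to 0.746). The interval lay below 1 and did not reach 1/1.5, and the ratio was below 1 with each other unit, scaling and pseudocount that was run.

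VIM and FN1 had the lowest FPKM ratios of the 10 genes, so the bases just upstream of their transcription starts are shown, from RefSeq (GRCh38.p14). Capitals mark matches to the GC box GGGCGG, the binding sequence of Sp1 factors, and to the cAMP response element TGACGTCA, each sought on both strands. The VIM window is chr10:17227991-17228240, plus strand, and the FN1 window chr2:215436074-215436318, minus strand.
VIM: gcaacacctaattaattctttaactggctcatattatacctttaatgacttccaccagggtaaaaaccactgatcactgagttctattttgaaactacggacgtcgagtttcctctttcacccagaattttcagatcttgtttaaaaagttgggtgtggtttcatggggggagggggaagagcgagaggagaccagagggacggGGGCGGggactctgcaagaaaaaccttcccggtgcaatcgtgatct
FN1: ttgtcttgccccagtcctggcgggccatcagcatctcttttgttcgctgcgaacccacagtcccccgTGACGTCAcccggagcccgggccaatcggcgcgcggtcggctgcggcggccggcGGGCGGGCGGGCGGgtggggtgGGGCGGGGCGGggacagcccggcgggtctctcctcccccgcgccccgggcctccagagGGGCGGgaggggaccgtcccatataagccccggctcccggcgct

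The VIM window held 1 GC box, and the FN1 window 6, some of them overlapping, with 1 cAMP response element. Of all 35116 RefSeq windows of 250 bases, 42.6% held a GC box and 1.65% a cAMP response element. The E-box CACCTG (or CAGGTG on the other strand), to which SNAI and ZEB proteins bind, was found in neither window and in 17.5% of all. These are matches of letters and not measurements of binding. Upstream windows were also matched for CDH2, ZEB1 and ZEB2, of which the ZEB1 windows alone held E-boxes, 1 in one window and 2 in another of its 7.

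SNAI2 was by far the most abundant of the transcription factors, and the libraries did not differ in it beyond counting error. The FPKM, 36.62 in DMSO against 35.68 in FIN56, came from 5455 and 5559 counts. The ratio was 0.974, and the count ratio of 0.979 had an interval of 0.943 to 1.02. SNAI2 made up 82.4% of the summed TPM of the 5 factors in DMSO and 84.3% in FIN56. TWIST1 made up most of the rest, with 15.7% and 13.4%.

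TWIST1, on the minus strand of chromosome 7 (chr7:19115468-19117636, 2 exons), was somewhat lower with FIN56. The FPKM was 7.0 and 5.66, a ratio of 0.809 or 19.1% lower, from 705 and 615 counts. The count ratio was 0.838 (0.751 to 0.935). Thus VIM, FN1 and TWIST1 had intervals below 1, and the 3 cadherins, CDH2 of mesenchymal cells among them, had intervals above 1. The FPKM ratio of CDH1 was 0.997, and the interval of SNAI2 included 1. The genes of the mesenchymal side thus did not all go one way. An interval clear of 1 was common at this depth: of the 10327 genes with at least 1000 counts together, it lay above 1 for 42.2% and below 1 for 37.4%, and for 3 each of the 7 of the 10 genes in this class. The split is therefore near the background in its counts. The difference in VIM was the largest in size of the 7.

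SNAI1 was scarcely detected. The founding member of its family, it lies on the plus strand of chromosome 20 (chr20:49982980-49988886, 3 exons) and had 18 counts with DMSO and 25 with FIN56, or an FPKM of 0.16 and 0.21. The ratio of 1.31 had a count interval of 0.699 to 2.6, so a difference was not detectable at this depth. SNAI2 exceeded it by 228 times per length in DMSO and 165 times in FIN56.

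ZEB1 and ZEB2, the paired zinc finger and homeobox repressors, were also low in both libraries. ZEB2 (chr2:144384081-144520119, minus strand, 10 exons) had 111 counts in each library and an FPKM of 0.36 in each, with a count ratio of 0.961 (0.732 to 1.26). ZEB1 (chr10:31319216-31529804, plus strand, 9 exons) had an FPKM of 0.28 and 0.42, a ratio of 1.5 and the only one of the 10 genes at 1.5 or more, as 14.7% of all tested genes were. The FPKM are deposited with 2 decimals, and with values this low the rounding can move the ratio to either side of 1.5. Its counts, however, were 100 and 109, with a ratio of 1.04 (0.791 to 1.39). The difference between the measures lies in the effective length by which RSEM divides, which follows from the counts and the FPKM as 5089 bases in DMSO and 3543 in FIN56. For the other 9 genes the effective length in FIN56 was between 0.961 and 1.04 times that in DMSO, against 0.696 times for ZEB1. An effective length is estimated separately in each library from the share of each transcript, here from about 100 reads. Of genes with at least 1000 counts together, 2.92% had an FPKM ratio of 1.5 or more, and none of the 7 genes of this class did.

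**Figure D2:**
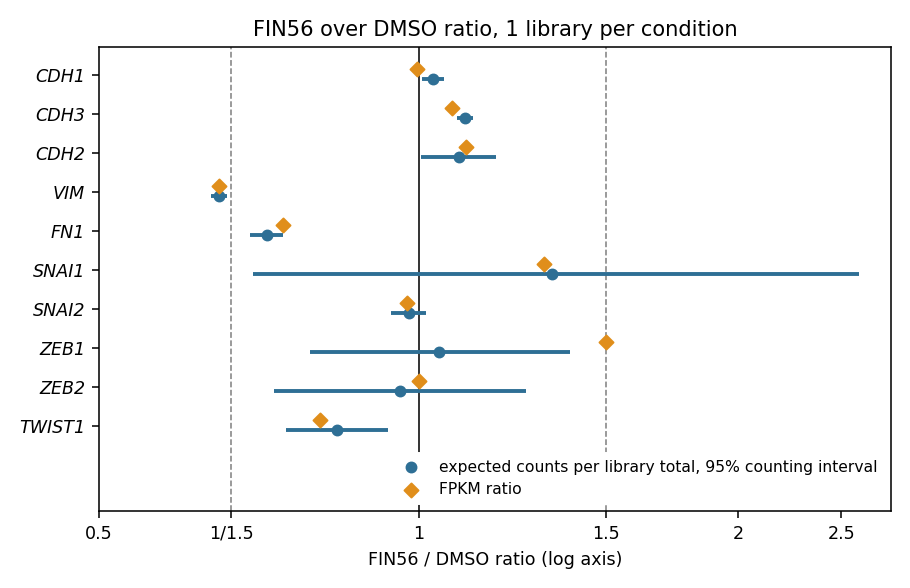
Ratio of FIN56 over DMSO on a log axis (horizontal) for the 10 genes, as FPKM ratio (diamonds) and as ratio of expected counts per library total (circles) with its 95% counting interval (bars). Dashed lines mark 1.5 and 1/1.5. VIM alone has its whole interval beyond a dashed line, and the gap between the measures is widest for ZEB1, at 1.5 and 1.04.

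**Figure D3:**
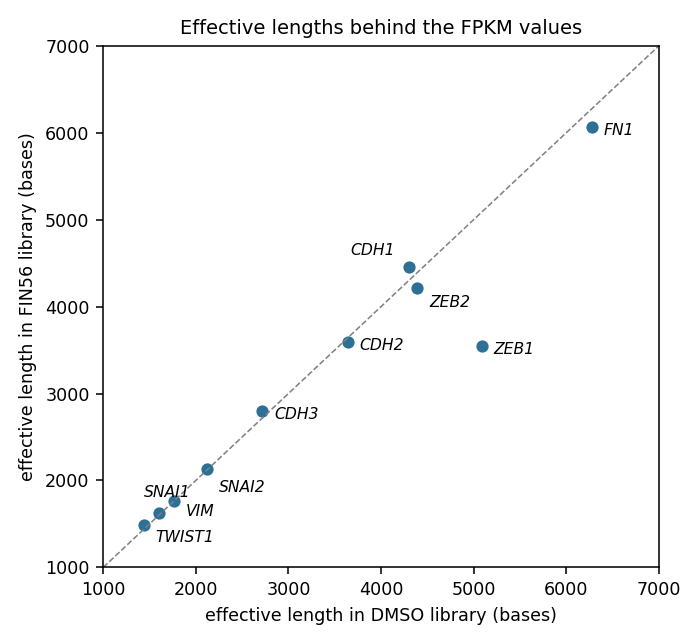
Effective length in bases of each of the 10 genes in the FIN56 library (vertical) against the DMSO library (horizontal), computed from the expected count, the FPKM and the library total. The dashed line marks equal lengths. ZEB1, at 5089 and 3543 bases, is the gene away from it.

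ZEB1 and ZEB2 are textbook targets of the miR-200 family and miR-205, microRNAs of epithelial cells. Their mature sequences are shown, from RefSeq, with the seed (bases 2 to 8) in capitals, because the shared seeds define which sites a family can pair with. The first group below shares one seed, the next pair another, and miR-205 has its own.
hsa-miR-200b-3p: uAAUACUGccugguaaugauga
hsa-miR-200c-3p: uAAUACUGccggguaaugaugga
hsa-miR-429: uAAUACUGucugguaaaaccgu
hsa-miR-200a-3p: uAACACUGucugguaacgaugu
hsa-miR-141-3p: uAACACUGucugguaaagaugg
hsa-miR-205-5p: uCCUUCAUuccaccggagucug

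Matches to these seeds were most numerous in ZEB1 and ZEB2. In the canonical transcript of GENCODE release 44, the ZEB1 3′ untranslated region of 2540 bases held 6 matches to the seed of miR-200b, miR-200c and miR-429, 3 to that of miR-200a and miR-141 and 1 to that of miR-205. The ZEB2 region of 5370 bases held 5, 4 and 0. For the miR-200b, miR-200c and miR-429 seed this is 2.36 matches per 1000 bases in ZEB1 and 0.931 in ZEB2, against 0.119 over the 19228 canonical 3′ untranslated regions, of which 16.2% held at least 1 match. For the miR-200a and miR-141 seed the share of all regions with a match was 18.3%, and for miR-205 11.5%. FN1 held 2 matches to the first seed in a short region of 690 bases, or 2.90 per 1000 bases, SNAI2 1 to the first and CDH3 1 to that of miR-205. CDH1, CDH2, VIM, SNAI1 and TWIST1 held none. As an example of each gene, the match to the first seed nearest the stop codon is shown in capitals, with the bases before it.
ZEB1, chr10:31527618-31527639, plus strand: attgttttatcttatCAGTATT
ZEB2, chr2:144389053-144389074, minus strand: cgcactaccatacatCAGTATT

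Host transcripts were read for miR-205, miR-200c and miR-141 only, and the mature microRNAs were not measured. MIR205HG, the long non-coding RNA whose gene holds MIR205, was abundant and differed more between the libraries than any of the 10 genes. Its level was 349.69 FPKM in DMSO against 107.73 in FIN56, a ratio of 0.308, from 27497 and 7510 counts. The count ratio was 0.262 (0.256 to 0.269). MIR200CHG, which holds MIR200C and MIR141, had an FPKM of 7.42 and 5.50 from 131 and 101 counts, with a count ratio of 0.741 (0.566 to 0.967). The hairpin MIR205 had 18 and 5 counts, and those of MIR200A, MIR200B, MIR200C, MIR141 and MIR429 had 0, in libraries made from mRNA that do not measure small RNAs. The antisense genes VIM-AS1 and ZEB1-AS1, which overlap VIM and ZEB1 on the other strand, had count ratios of 0.903 (0.735 to 1.12) and 0.871 (0.716 to 1.06). VIM-AS1 had 193 and 181 counts beside the 32441 and 21926 of VIM. ZEB1-AS1 had 223 and 202, more than ZEB1 itself. In FIN56 the expected counts of ZEB1 and ZEB1-AS1, 108.71 and 202.29, were not whole, whereas in DMSO both were. These counts may therefore share reads in FIN56, which was not tested. Whether the counting used the strand is not given in the sources used here.

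The wider adhesion and EMT genes were read from 10 lists of 168 genes in all, each described by how many genes lay past the thresholds. Of these, 139 were above 0 in each library. Among the 139, 11 reached a ratio of 1.5 and 13 fell to 1/1.5 or less, beside 14.7% and 17.3% of all tested genes. However, only 14247 of the 24454 tested genes had at least 100 counts together. At that depth 6 and 5 of 114 list genes passed the thresholds, beside 765 and 1261 of the 14247 genes. The median log2 FPKM ratio of the 139 list genes was 0.03, and that of all genes 0. Among the lists of adhesion, epithelial and EMT genes the medians lay between -0.03 and 0.14.

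Of 20 other cadherins, only CDH13, CDH24 and CDH4 had at least 100 counts in both libraries together. CDH13, a cadherin anchored to the membrane by a lipid, had FPKM values of 25.36 and 31.18, a ratio of 1.23 and a count ratio of 1.20 (1.14 to 1.26). It was thus more abundant than CDH2 in both. CDH24 was level at 14.68 and 14.87. CDH4, or R-cadherin, was low at 0.85 and 0.60, from 362 and 230 counts, with a count ratio of 0.610 (0.515 to 0.722). The other 17, including CDH11 of mesenchymal cells with 39 and 50 counts, had under 100 counts together, 6 of them at 0 in both libraries.

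Of 11 catenins and other partners of the cadherins in the adherens junction, 10 lay between the thresholds, and the median log2 ratio was 0.08. Without VCL their FPKM ratios ran from 0.857 for JUP to 1.25 for NECTIN4. CTNNA1, which encodes α-catenin, had an FPKM of 142.49 and 146.34, and JUP, or γ-catenin, 128.37 and 109.95. VCL, encoding vinculin, the protein that ties α-catenin and integrin contacts to actin, was the exception. It had FPKM values of 73.98 in DMSO and 115.81 in FIN56, a ratio of 1.57 and a count ratio of 1.6 (1.58 to 1.62).

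All 28 genes of epithelial identity were detected in both libraries, and 26 lay between the thresholds. The FPKM ratio was above 1 for 18 and below 1 for 10, beside 11770 and 11299 of the 24454 genes tested. Count intervals lay above 1 for 13 of the 28 and below 1 for 6, beside 42.2% and 37.4% of genes with at least 1000 counts together. The median log2 ratio was 0.10, beside 0 for all genes and 0.04 for those with at least 1000 counts together. EPCAM, the epithelial cell adhesion molecule, had an FPKM of 111.32 and 160.11, a ratio of 1.44 and a count ratio of 1.40 (1.37 to 1.44). SPINT1, an inhibitor of epithelial serine proteases, had 52.33 and 72.45, a ratio of 1.38. GRHL1 reached 1.52 by FPKM with a count ratio of 1.12 (0.964 to 1.3), a gap like that of ZEB1. On the lower side, ELF3, an epithelial ETS factor, had 27.71 and 20.42, a ratio of 0.737 and a count ratio of 0.647 (0.611 to 0.685). TJP3 was the gene of this list at 1/1.5 or less, and it rested on 43 and 20 counts.

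Of 15 other EMT transcription factors, FOXQ1, a forkhead factor, was higher with FPKM of 3.76 and 5.85, a ratio of 1.56 and a count ratio of 1.56 (1.41 to 1.71). HMGA2, a chromatin protein upstream of SNAI1 and TWIST1, was the most abundant of them at 250.77 and 279.16. TWIST2, the paralog of TWIST1, was the gene at 1/1.5 or less, with 25 counts in DMSO and 5 in FIN56. PRRX1 had no count in either library. Of the corepressors and turnover factors of the SNAI and ZEB proteins, none of the 13 detected genes passed either threshold, with ratios from 0.962 for FBXL14, a ubiquitin ligase subunit, to 1.24 for the corepressor CTBP2. Count intervals lay above 1 for 7 of them and below 1 for 3, beside 42.2% and 37.4% of genes with at least 1000 counts together. BTRC, a ubiquitin ligase subunit, had an FPKM ratio of 1.00 but a count ratio of 0.786 (0.745 to 0.829).

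The genes of partial EMT in squamous carcinoma were highly expressed and went both ways. Their summed TPM was 5362 in DMSO and 5423 in FIN56, led by CAV1, which encodes caveolin-1, with FPKM of 718.10 and 701.48. EMP3, a membrane protein, was lower at 32.80 and 21.66, a ratio of 0.660. ITGB6, the epithelial integrin subunit that binds fibronectin, was higher at 6.79 and 11.67, a ratio of 1.72 and a count ratio of 1.5 (1.42 to 1.59). IGFBP7 was higher at 173.76 and 265.30, a ratio of 1.53. The 20 genes had 8 count intervals above 1 and 8 below. Of genes with at least 1000 counts together, 42.2% lay above 1 and 37.4% below, so this split is near the background.

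The EMT signature that the study used on tumors, without those it shares with the 10 genes, covered 39 genes, of which 29 were above 0 in both libraries. The median log2 ratio of these 29 was -0.03. A ratio of 1.5 or more was found for 4 and one of 1/1.5 or less for 4, beside 14.7% and 17.3% of all tested genes. Among the 21 genes with at least 100 counts together these were 1 and 1, TIMP2 and COL1A1, and the rest had few counts. COL1A1, a fibrillar collagen chain, had an FPKM of 4.25 and 2.19, a ratio of 0.515 and a count ratio of 0.587 (0.528 to 0.653). TIMP2, an inhibitor of metalloproteinases, had 24.82 and 41.93, a ratio of 1.69. SPARC, a matrix protein and the most abundant of them, was level at 560.16 and 575.02. COL1A2, POSTN, ATP10A and ZNF469 had no count in either library.

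Receptors for fibronectin that were above 0 in both libraries lay between the thresholds, apart from ITGB6. ITGA5 and ITGB1, the chains of its main receptor, had ratios of 1.03 and 1.09, with FPKM of 57.38 and 59.18 and of 470.37 and 514.90. SDC4, a heparan sulfate coreceptor, had a ratio of 1.14. ITGB8 was the lowest, with FPKM of 1.52 and 1.20, a ratio of 0.789 and a count ratio of 0.766 (0.695 to 0.845). Among the relatives of vimentin, NES, or nestin, was lower as VIM was, with FPKM of 1.49 and 0.77, a ratio of 0.517 and a count ratio of 0.515 (0.447 to 0.592). SYNM, or synemin, was level at 0.75 and 0.78. The other 7 filament genes had under 100 counts each, and 3 of them had none. The median log2 ratio of this list, -0.91 over the 5 genes above 0 in both libraries, was the one list median past a threshold, and it was -0.45 over NES and SYNM alone.

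**Figure D4:**
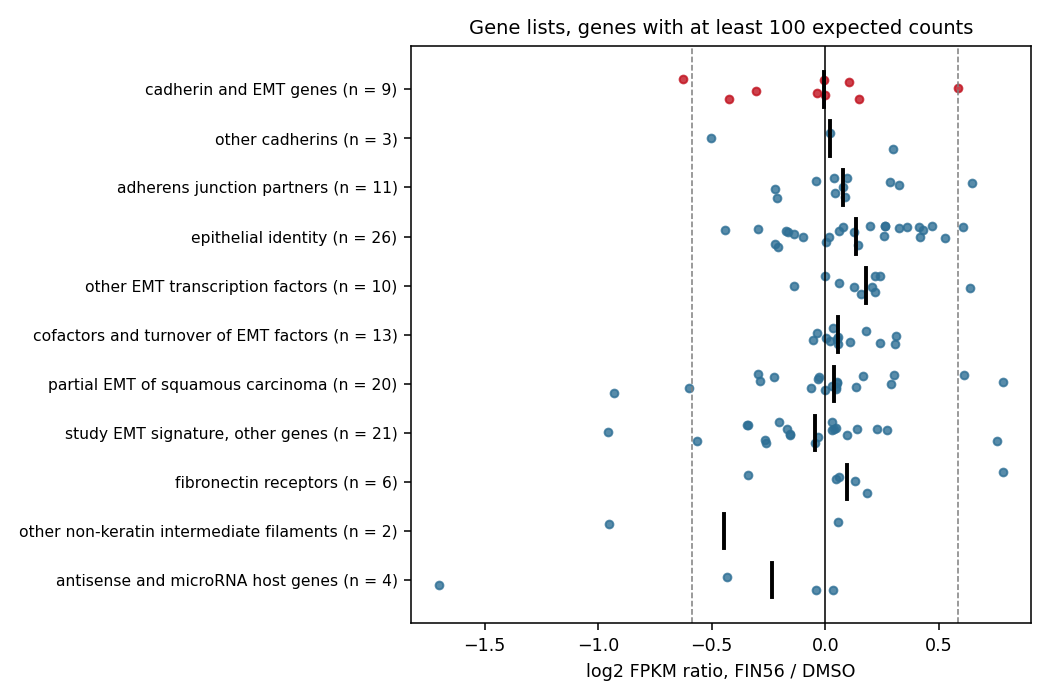
Log2 FPKM ratio of FIN56 over DMSO (horizontal) for the genes of each list whose counts in DMSO and FIN56 summed to at least 100, 1 point per gene, with the list median as a black bar and dashed lines at 1.5 and 1/1.5. The 10 cadherin and EMT genes are in red, without SNAI1, which had 43 counts. Most points lie between the dashed lines, and the lowest point is MIR205HG.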

How the data were processed

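RNA of HSC-3 cells was sequenced in 1 DMSO and 1 FIN56 library from a stranded TruSeq mRNA kit, per the labels. By the submitters' processing notes the authors aligned reads with STAR 2.6.1a to GRCh38 and used RSEM 1.3.1. The deposited expected counts are estimated counts per gene and are not normalized. The FPKM values deposited by the authors, with 2 decimals, and the deposited TPM are divided by effective length. The deposited rlog values are on a log2 scale, from DESeq2 1.26.0. The 8 columns of sample values carried the sample names.

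Every gene whose FPKM exceeded 0 in DMSO and in FIN56 was given its FIN56-to-DMSO FPKM ratio, read against the threshold of 1.5 that the study used, and its inverse. A 95% Clopper-Pearson interval was computed on rounded expected counts scaled by library totals. It covers counting error only, because with 1 library per condition no variation between cultures enters it. Since PCR copies cannot be told from separate molecules without molecular identifiers, it may be too narrow even for counting error. Total expected counts were 70184517 and 73062209, and the interval ran from 0.638 to 0.660 for VIM and from 0.699 to 2.6 for SNAI1. Expected counts were whole (within 0.005) for 6 of the 10 genes, and those of CDH2, CDH3, VIM and ZEB1 were not, so part of their reads also fits other genes.

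The 10 genes and the lists were chosen with earlier results of these data known. The lists came from general knowledge, save the EMT signature, which is the paper's. Named list genes were the 3 highest and 3 lowest ratios among those with at least 100 counts in both libraries together, the highest TPM of each list and cell type markers at 0. Others (CDH11, TJP3, TWIST2, PRRX1, CD14, CD68, COL3A1 and genes at 0) were named after their values were seen. Not every gene that the rule names is reported here. Alternatives were TPM, rlog, library totals, TMM (edgeR 4.0.16), median-of-ratios factors (DESeq2 1.42.0), pseudocounts, filters and a threshold of 2. The filter of 1000 counts was chosen after seeing the data. Positions came from GENCODE release 44 on GRCh38, in which 99.7% of the identifiers were found. Upstream windows from RefSeq were found for VIM, FN1, CDH2, ZEB1 and ZEB2. The interval and the thresholds were tried on simulated counts that held counting error alone. Changes larger than the thresholds were planted and called by count ratio. Calls by FPKM ratio were not tested in this way. Python 3.11.15 and R 4.3.3 were used.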

Additional observations from a re-analysis of the deposited data

How the results depend on the processing

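No paired analysis was possible because DMSO and FIN56 are single libraries, so no replicate could be left out either. Of the 10 cadherin and EMT genes, 2 lay past the thresholds by FPKM, ZEB1 higher and VIM lower. With library totals, TMM, median-of-ratios factors, a pseudocount of 0.1 or 1 FPKM, an FPKM of at least 1 in 1 library or at least 1000 counts together, 1 did, and it was VIM. With rlog values or a threshold of 2, 0 did. ZEB1 left because the count ratio, at 1.04 by library totals and 1.07 by median-of-ratios factors, carries no effective length, because a pseudocount lowers its ratio, or because a filter removed it, and its FPKM ratio lies at the threshold only to within rounding. Filters leave a single gene's ratio as it is. Over the main value and the other units, scalings and pseudocounts, VIM ranged from 0.648 to 0.838, the last by rlog, which draws libraries together. It stood at 0.663 by TPM and 0.666 by median-of-ratios factors, close to the threshold. FN1 ranged from 0.719 to 0.880 and TWIST1 from 0.809 to 0.953. CDH2 ranged from 1.04 to 1.13 and CDH3 from 1.06 to 1.13. CDH1 ranged from 0.997 to 1.06, and SNAI2 from 0.974 to 1.00, on both sides of 1. The 24 list genes past the thresholds became 1 with rlog, 7 with a pseudocount of 1, 11 with an FPKM of at least 1 in 1 library, 7 at a threshold of 2 and 9 with at least 1000 counts together. Over all genes, 7823 became 23, 1261, 1887, 4472 and 863 under the same settings, and 3259 with at least 10 counts in both libraries. Filters leave fewer genes to count. The share of higher genes among all those past a threshold, 45.8%, was 30.4% with rlog. Depth limits SNAI1, ZEB1 and ZEB2 most, with 18 to 111 counts a library, and their count intervals include 1, as that of SNAI2 does.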
